A study of Mus musculus with 6 samples.

Results

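The matrix metalloproteinases are secreted or membrane-bound zinc proteases that cut collagen, gelatin, fibronectin and other proteins of the extracellular matrix. The tissue inhibitors of metalloproteinases (TIMPs) are small secreted proteins that bind the active site of these proteases and block it. In solid tumours both families are made by the cancer cells and by host fibroblasts, macrophages and neutrophils, and they are known for their part in matrix remodelling and invasion. The genes described here are 10 members of these families, the proteases Mmp2, Mmp3, Mmp9, Mmp10, Mmp11, Mmp13 and Mmp14 and the inhibitors Timp1, Timp2 and Timp3. They were listed by symbol and found through 21 Affymetrix probe sets annotated to 1 of these symbols alone, out of 20380 such probe sets for 12393 genes. The probe set with the highest mean log2 value over the 6 arrays stands for its gene below, and the other probe sets are given beside it.

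RNA of 3 vector and 3 miR-34a samples was measured, 1 array a sample. All 6 came from 344SQ, a mouse lung cancer cell line described in the labels as a metastatic KP line with high Zeb1. The vector samples carried a control vector, and in the miR-34a samples the microRNA miR-34a was expressed from an inducible construct. The labels name no inducing agent, dose, time, mouse strain or age. The design text and the miR-34a titles refer to tumours grown in mice, while other fields refer to cultured cells. The labels do not say whether the replicates were separate animals, cultures or only repeat preparations, and each p-value rests on the spread among these 6 samples alone, which could be technical. The agent that separates the groups is shown here as its RefSeq mature sequence (GRCm38.p6, chr4:150068473-150068494, plus strand), with the seed, bases 2 to 8, in capitals.
mmu-miR-34a-5p: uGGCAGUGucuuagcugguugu

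Across the 10 genes, 1 passed the test as higher in miR-34a samples and 0 passed as lower. The gene that passed was Mmp11, stromelysin-3, which was 2.80-fold higher, a log2 change of 1.49 ± 0.34 (SE, 3 arrays a group). Its vector readings were dim, at 65 to 167, where signal and background are not told apart here. The test was limma over all 12393 genes on log2(intensity + 16), with Benjamini-Hochberg adjusted p under 0.05. Over all genes it called 6.5% higher and 5.25% lower, so 1 of 10 is near the background. At an unadjusted p under 0.05, 4 members were higher and 2 lower, 6 of 10 in all, where 28.2% of all genes reached that level. The values of the groups did not overlap in 7 of the 10 members, against 34.9% of all genes. The median change of the members was 0.42 in log2 units, and that of all genes tested was 0.024.

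**Figure D1:**
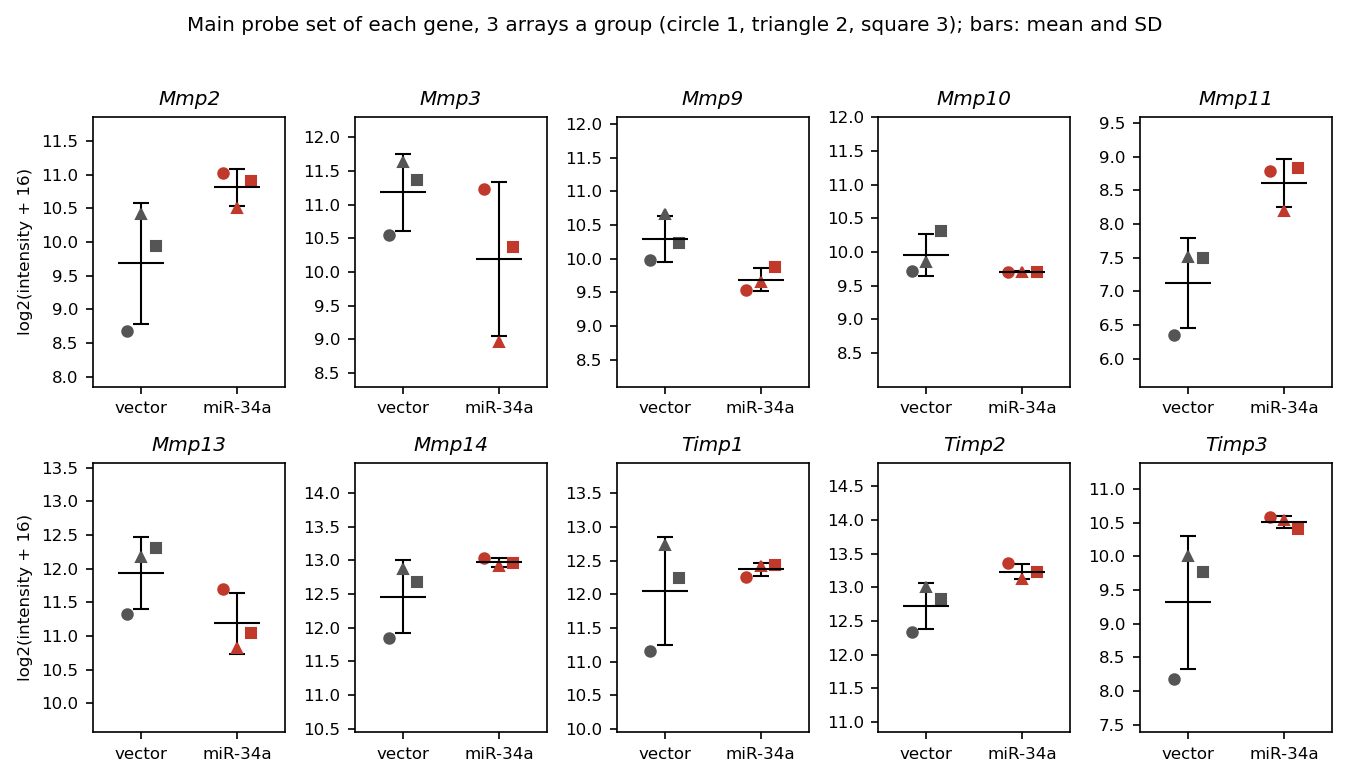
Values of the main probe set of each gene, as log2(intensity + 16) on the vertical axis, in the 3 vector arrays (grey) and the 3 miR-34a arrays (red); bars give the mean and SD, and every panel spans the same number of log2 units. Vector 1 (grey circle) is the lowest vector array in all 10 panels, and the groups do not overlap in 7 of them.

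A single array stood apart from its group. Across all genes, Pearson's r between arrays was 0.993 for vector 2 with vector 3 and 0.992 to 0.996 among miR-34a arrays. It was 0.969 and 0.972 for vector 1 with the other vector arrays. These correlations are across genes, which are not independent replicates. Vector 1 had the lowest of the 3 vector values for all 10 members. The median deviation of the members from the vector mean was -0.63 in vector 1, 0.40 in vector 2 and 0.24 in vector 3, and 0.39 to 0.44 in the miR-34a arrays. The median deviation of all genes in vector 1 was 0.04. Without vector 1, the members that passed numbered 2 higher, Mmp11 and Timp3, and 2 lower, Mmp9 and Mmp13. That fit called 2133 of all 12393 genes, against 1456 with all 6 arrays, so calls were more frequent among all genes too. With vector 3 or any 1 array of the miR-34a group left out, 0 members passed in either direction, beside 226 to 667 of all genes. The change of each member is therefore given with vector 1 and, after seeing the data, without it.

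**Figure D2:**
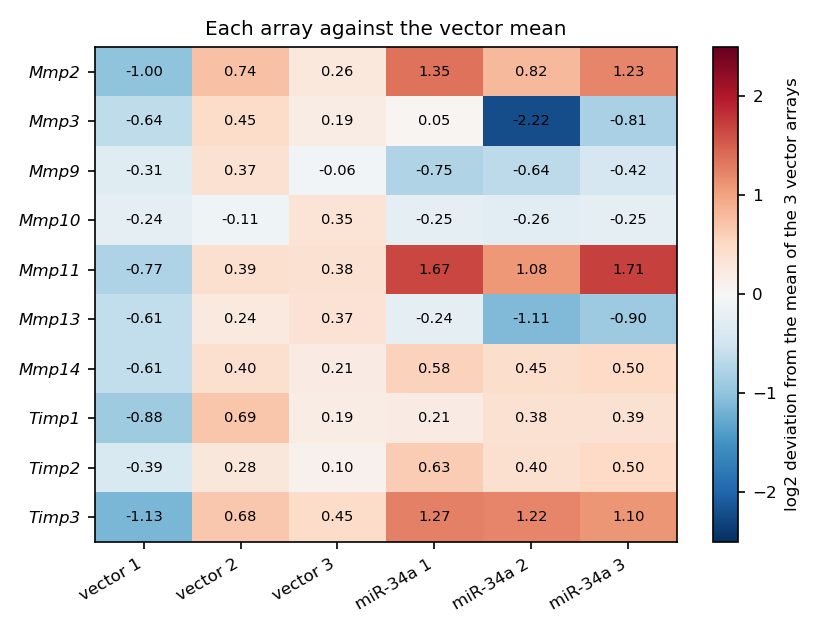
Deviation of each array (columns) from the mean of the 3 vector arrays, in log2 units, for the main probe set of each gene (rows). The vector 1 column is negative for all 10 genes, while the miR-34a columns are positive throughout for Mmp2, Mmp11, Mmp14, Timp1, Timp2 and Timp3 and negative throughout for Mmp9, Mmp10 and Mmp13.

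The gelatinases Mmp2 and Mmp9 cut denatured collagen and the type IV collagen of basement membranes. Mmp2 had deposited intensities of 394, 1357 and 968 in vector 1 to 3 and of 2074, 1431 and 1907 in miR-34a 1 to 3. All miR-34a values lay above all vector values, with the gap set by vector 2 and miR-34a 2, which were close. The log2 mean was 9.68 ± 0.90 in vector and 10.81 ± 0.28 in miR-34a samples (SD, n = 3). The difference of 1.13 ± 0.41 (SE) did not pass (limma adjusted p = 0.127). The change was 0.63 without vector 1 (limma adjusted p = 0.0558). The second Mmp2 probe set changed by 0.92, with overlapping groups, and by 0.50 without vector 1. Both probe sets therefore had positive changes of like size and neither passed.

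Mmp9, the gelatinase that neutrophils store in granules, had values on the opposite side. Its main probe set read 995, 1606 and 1181 in the vector arrays and 726, 785 and 919 in the miR-34a arrays. The 3 miR-34a values were all below the 3 vector values, and the highest miR-34a array was close to vector 1. The log2 mean went from 10.29 ± 0.35 to 9.68 ± 0.17 (SD, n = 3). The difference of -0.61 ± 0.18 (SE) did not pass (limma adjusted p = 0.0748). Without vector 1 it was -0.76 and passed (limma adjusted p = 0.0141).

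The second Mmp9 probe set gave a larger difference. It read 924, 3046 and 1606 in vector and 516, 488 and 656 in miR-34a arrays, again without overlap. The change was -1.57 ± 0.38 (SE), a 2.96-fold lower level, and it passed in a fit over all single-symbol probe sets (limma adjusted p = 0.0365). It also passed when this probe set stood for the gene, as it does if the brightest probe set is chosen by the mean of linear values (limma adjusted p = 0.0444). Without vector 1 its change was -1.98. The call for Mmp9 depended on the probe set. The log2 difference between both probe sets within an array was -0.10 to 0.92 in vector and -0.67 to -0.48 in miR-34a arrays.

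The stromelysins Mmp3 and Mmp10 and the collagenase Mmp13 lie in 1 cluster of 10 metalloproteinase genes on chromosome 9 of the RefSeq annotation. Mmp3 and Mmp10 cut proteoglycans, fibronectin and laminin and activate other proteases of the family, and Mmp13 is the main interstitial collagenase of the mouse. Their promoters share letters that the other members in the promoter table lack. The AP-1 heptamer TGAGTCA, the sequence bound by Fos and Jun dimers, was searched on both strands of the 250 bases before the annotated start. It was found in Mmp3, Mmp10 and Mmp13 and not in Mmp11, Mmp14, Timp1, Timp2 or Timp3. Mmp2 and Mmp9 had no RefSeq promoter entry and were not searched. Of 32851 RefSeq promoters of the same length, 4.46% held it. The hexamer TATAAA on the strand of the gene was present in the same 3 promoters and in 7.59% of all. A match describes these letters and shows no binding. The last 100 bases before the start are printed below for the 3 promoters with the heptamer and for those of Mmp11 and Timp3, which lack it and whose genes had the largest positive changes. Capitals mark the heptamer, which in Mmp13 lies on the minus strand of the gene.
Mmp3, GRCm38.p6, chr9:7445722-7445821, plus strand: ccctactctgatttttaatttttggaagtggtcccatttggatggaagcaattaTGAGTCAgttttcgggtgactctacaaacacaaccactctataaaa
Mmp10, GRCm38.p6, chr9:7502242-7502341, plus strand: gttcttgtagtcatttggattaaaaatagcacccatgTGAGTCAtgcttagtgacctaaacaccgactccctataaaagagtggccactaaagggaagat
Mmp13, GRCm38.p6, chr9:7272414-7272513, plus strand: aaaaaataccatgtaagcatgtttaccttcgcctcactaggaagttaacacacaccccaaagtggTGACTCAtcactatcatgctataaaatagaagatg
Mmp11, GRCm38.p6, chr10:75932503-75932602, minus strand: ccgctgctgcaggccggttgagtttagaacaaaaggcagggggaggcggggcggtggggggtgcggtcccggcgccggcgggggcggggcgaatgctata
Timp3, GRCm38.p6, chr10:86300312-86300411, plus strand: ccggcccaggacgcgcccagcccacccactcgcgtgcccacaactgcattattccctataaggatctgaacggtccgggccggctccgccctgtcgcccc

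**Figure D3:**
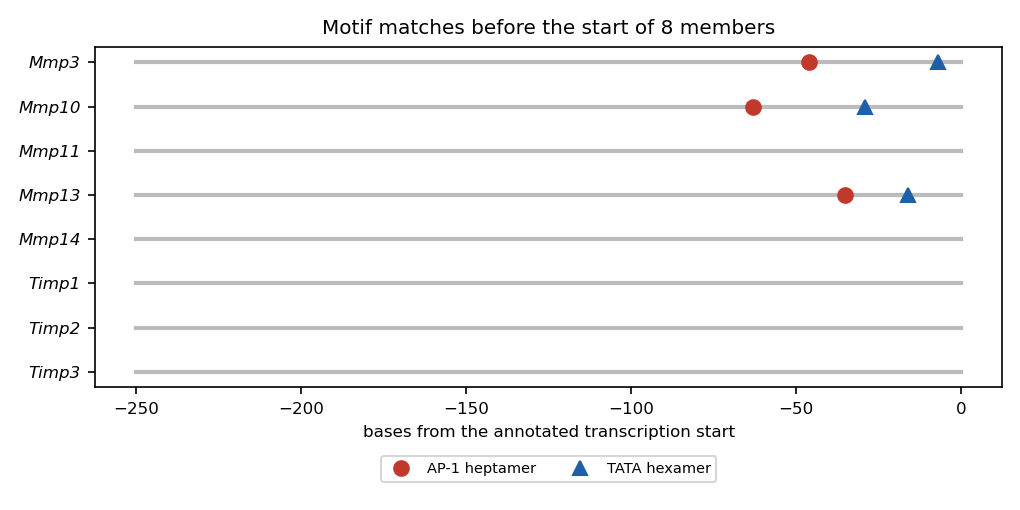
Matches of the AP-1 heptamer (circle) and of the TATA hexamer (triangle) along the 250 bases before the annotated start of the 8 members with a RefSeq promoter entry. The heptamer begins 46 bases before the start in Mmp3, 63 in Mmp10 and 35 in Mmp13, each time upstream of the hexamer, and the other 5 lines are empty.

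The promoters with the heptamer were also poorer in G and C, at 37.6%, 37.2% and 40.4% of the 250 bases in Mmp3, Mmp10 and Mmp13, against 54.4% to 68.0% in the other 5. The 3 genes had negative changes, and none passed. Mmp13 read 2552, 4627 and 5061 in vector and 3315, 1800 and 2088 in miR-34a arrays. The groups overlapped, since vector 1 lay below miR-34a 1. Its change was -0.75 ± 0.31 (SE; limma adjusted p = 0.169), and without vector 1 it was -1.06 and passed (limma adjusted p = 0.0187).

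Mmp3 was the member with the widest spread among miR-34a arrays. It read 1481, 3170 and 2639 in vector and 2401, 483 and 1316 in miR-34a arrays. MiR-34a 2 was the lowest array and miR-34a 1 lay within the vector range. The change was -0.99 with a 95% interval from -2.31 to 0.33 (limma adjusted p = 0.299), and it rested on single arrays. It was -0.38 if miR-34a 2 was dropped, -1.52 if miR-34a 1 was, and -1.31 without vector 1. Mmp10 read 823, 907 and 1251 in vector and 820, 813 and 820 in miR-34a arrays. The miR-34a arrays were nearly equal, and vector 1 differed from them by only a few intensity units. Its change was -0.25 ± 0.15 (SE; limma adjusted p = 0.326). The size depended on the single high reading of vector 3, since it was -0.078 without that array, and it was -0.38 without vector 1.

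Of the 10 genes in the cluster, 9 were measured and 0 passed by limma. Besides the 3 members, the macrophage elastase gene Mmp12 changed by 0.37, with vector values from 291 to 1712, a range that held all its miR-34a values. The matrilysin gene Mmp7 changed by 0.17. The neutrophil collagenase gene Mmp8, at the 7.1 percentile of mean level, changed by -0.29. The remaining measured genes, Mmp1a, Mmp1b and Mmp20, lay at the 0.6, 3.6 and 6.4 percentiles of level, where signal and background are not told apart here. In all, 5 of the 9 had negative changes.

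Mmp11, the stromelysin-3 gene, is known as a stromal protease of carcinomas that is activated inside the cell by furin. It read 65, 167 and 165 in vector and 428, 278 and 438 in miR-34a arrays. At the vector readings signal and background are not told apart, so the size of the change is uncertain. Every miR-34a value was above every vector value, and vector 1 was the lowest of all. The log2 mean went from 7.12 ± 0.67 to 8.61 ± 0.35 (SD, n = 3). This rise of 1.49 ± 0.34 (SE) passed (limma adjusted p = 0.0339). Without vector 1 the change was smaller, at 1.10, and passed (limma adjusted p = 0.00715). It did not pass without vector 3 (1.68, limma adjusted p = 0.0588), miR-34a 1 (1.39, 0.125), miR-34a 2 (1.69, 0.0582) or miR-34a 3 (1.38, 0.135), each pair giving the change and the limma adjusted p.

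The size of the Mmp11 change depended on the constant added before the logarithm, since the gene lay at the 25.2 percentile of mean level. It was 1.61 with 1 added and 1.21 with 64 added, and passed with both. The genes whose values over the 6 arrays were most like those of Mmp11, out of 12383 others, were Wnt10a, Dtnbp1 and Idnk, with Pearson's r of 0.997, 0.995 and 0.994. The 6 points of each share the group difference and the low vector 1, so these values only describe the pattern.

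Mmp14, the membrane-type protease MT1-MMP that cuts collagen at the cell surface and activates the Mmp2 proenzyme together with Timp2, was bright. It lay at the 96.5 percentile of mean level and read 3679, 7452 and 6513 in vector and 8409, 7686 and 7999 in miR-34a arrays. The groups did not overlap, but vector 2 came close to miR-34a 2. The change was 0.51 ± 0.25 (SE; limma adjusted p = 0.227) and was 0.20 without vector 1. The second Mmp14 probe set changed by 0.38, with overlapping groups, and by -0.055 without vector 1.

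The inhibitor genes had positive changes, and 0 of 3 passed by limma. Of the 3, 2 had an unadjusted p under 0.05, a level that 28.2% of all genes reached. Timp3, which binds to the matrix and also inhibits ADAM proteases, read 275, 1010 and 857 in vector and 1524, 1472 and 1349 in miR-34a arrays. The miR-34a readings were near each other and above all vector readings, with vector 1 far below the other two. The change was 1.20 ± 0.44 (SE), 2.29-fold, and did not pass (limma adjusted p = 0.125). Without vector 1 it was 0.63 and passed (limma adjusted p = 0.00752).

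All 4 Timp3 probe sets had miR-34a values above all vector values, where 34.9% of all genes did not overlap in either direction. These 4 read the same gene in the same samples, so they are not independent. The second brightest read 254, 623 and 488 against 1103, 1068 and 1142, and passed over all probe sets with a change of 1.34 ± 0.28 (SE; limma adjusted p = 0.0239). The third changed by 1.26 and did not pass. The dimmest changed by 0.33. The dimmest read 92, 145 and 155 against 168, 156 and 170, where signal and background are not told apart. Without vector 1 the 4 changes were 0.63, 0.98, 0.69 and 0.12, in order of brightness.

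Timp2, the inhibitor that joins Mmp14 and the Mmp2 proenzyme at the cell surface, had 6 probe sets. The main one, at the 97.6 percentile of level, read 5149, 8200 and 7250 in vector and 10453, 8903 and 9542 in miR-34a arrays. All miR-34a values were the higher ones. The change was 0.51 ± 0.17 (SE; limma adjusted p = 0.105), and 0.32 without vector 1.

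On the second brightest Timp2 probe set vector 1 did not stand apart. It read 6115, 5692 and 6086 in vector and 7811, 7134 and 7780 in miR-34a arrays. Its change, 0.34 ± 0.083 (SE), was smaller and passed over all probe sets (limma adjusted p = 0.0355). Of the 6 probe sets, 4 had positive and 2 negative changes. The larger negative one, of the fifth in brightness, had intensities of 598, 860 and 1253 in vector against 683, 560 and 662, a change of -0.44 with overlapping groups. Without vector 1 that change was -0.70 and passed over all probe sets (limma adjusted p = 0.0227), opposite in sign to the second brightest, which was at 0.36 (limma adjusted p = 0.0322).

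Timp1, the inhibitor that binds the Mmp9 proenzyme, did not keep a direction. It read 2282, 6809 and 4821 in vector and 4890, 5475 and 5514 in miR-34a arrays. The miR-34a values lay inside the vector range. The change was 0.32 with a 95% interval from -0.52 to 1.17 (limma adjusted p = 0.608), -0.12 without vector 1 and 0.67 without vector 2.

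**Figure D4:**
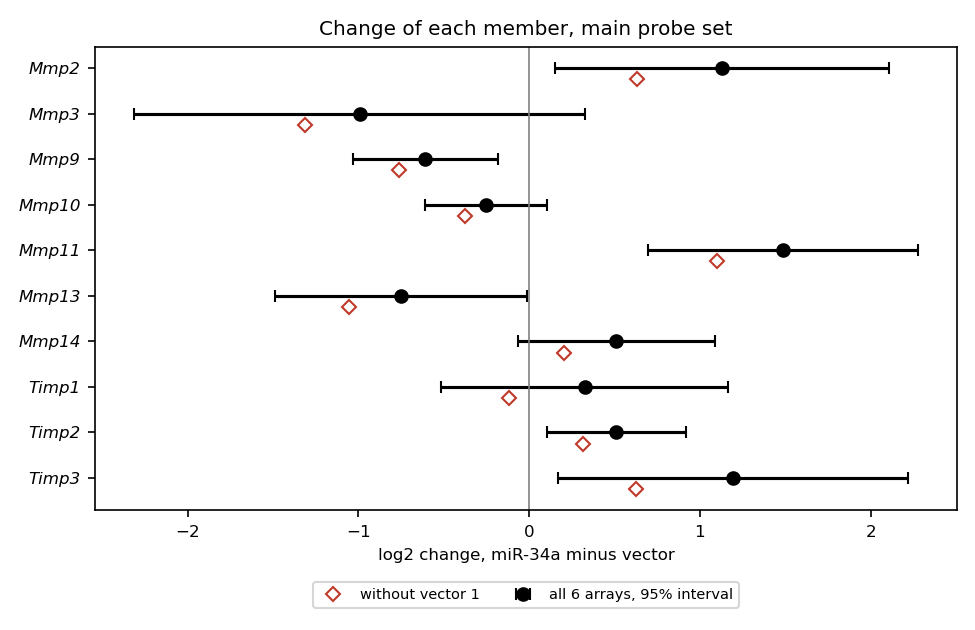
Log2 change of each member, miR-34a minus vector, with its 95% interval over all 6 arrays (black), and the change without vector 1 (open red diamond). Vector 1 was the lowest vector array for all 10 genes, so leaving it out must lower every change. The 6 positive changes are therefore smaller without vector 1, Timp1 crossing to -0.12, and the 4 negative ones are larger in size.

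Over all 21 probe sets of the members, 4 passed in the fit over probe sets, 3 higher and 1 lower, which is 19% against 13.7% of all single-symbol probe sets. They belong to Mmp9, Mmp11, Timp2 and Timp3. For Mmp9, Timp2 and Timp3 the probe set that passed was not the main one.

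**Figure D5:**
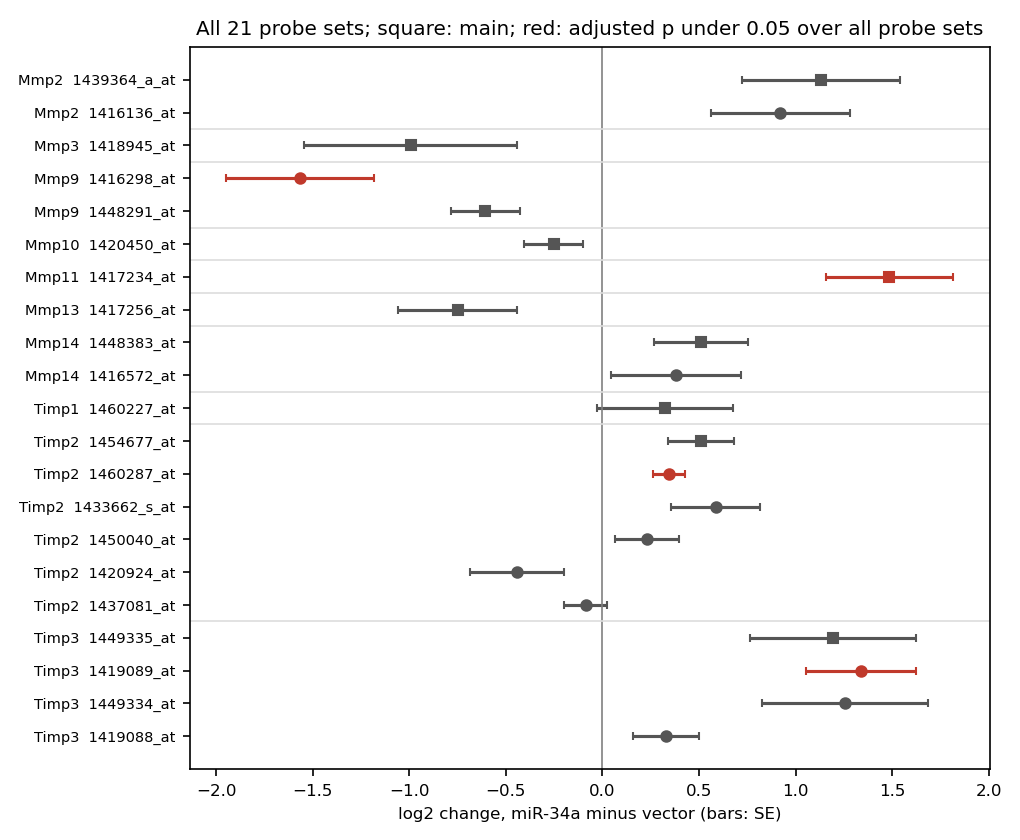
Log2 change, miR-34a minus vector, with its SE, for each of the 21 probe sets, grouped by gene. Squares are main probe sets, and red marks the 4 that passed over all probe sets. The Timp2 probe sets run from -0.44 to 0.59 and the Timp3 ones from 0.33 to 1.34.

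The wider protease system was read from lists chosen by role. Of 87 listed genes 73 were measured, and 3 passed as higher and 1 as lower, beside a median change of 0.076. Over all genes 6.5% passed as higher and 5.25% as lower, so these counts were not above the background. Among 11 other matrix metalloproteinases Mmp19, a protease found in many tissues, rose by 1.16 ± 0.24 (SE; limma adjusted p = 0.0267), from 74, 166 and 127 to 312, 281 and 255. Those vector readings were dim, where signal and background are not told apart here. Among 12 other inhibitors and activators Pcsk5, a proprotein convertase gene of the furin family, rose by 0.80 ± 0.16 (SE; limma adjusted p = 0.0239). Among 16 ADAM and ADAMTS genes Adamts5, an aggrecanase gene, rose by 0.61 ± 0.11 (SE; limma adjusted p = 0.018). Adam8, a membrane protease gene of leukocytes and tumour cells, fell by 0.49 (limma adjusted p = 0.0302). The 4 called genes were among 20 of the 73 whose values did not overlap between groups, against 34.9% of all genes. Without vector 1 Mmp19 changed by 0.88, Pcsk5 by 0.68, Adamts5 by 0.60 and Adam8 by -0.56, and all 4 passed. Over 6 fits with 1 array dropped each, Pcsk5 and Adamts5 kept their calls in 3, Mmp19 in 2 and Adam8 in 1.

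The other lists held no called gene by limma. Of 9 genes of the plasminogen system, which activates proteases of this family, 0 passed, 3 had an unadjusted p under 0.05 and the median change was 0.14. Of 11 AP-1 and ETS factor genes, 0 passed, 5 had an unadjusted p under 0.05 and the median was 0.096. In 14 genes of matrix proteins that the family cuts, 0 passed, 2 had an unadjusted p under 0.05 and the median was 0.53. Over all genes 28.2% reached that unadjusted level. Without vector 1, where 2133 of all genes passed, the called genes of the wider system numbered 5 higher and 4 lower. They were 4 and 0 if vector 2 was dropped, 2 and 0 if the second miR-34a array was, and 0 when vector 3, the first or the third miR-34a array was left out.

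Some markers of host cells passed beside the members, while the epithelial tumour cell markers did not. Over all genes 6.5% passed as higher, 5.25% passed as lower and 28.2% had an unadjusted p under 0.05. Krt18, the brightest of 7 epithelial tumour cell markers, was above nearly all genes in level, and 0 of the 7 passed by limma, also at an unadjusted p under 0.05. The lung lineage factor gene Nkx2-1 was at the 30.8 percentile of level. The summed intensity of 10 fibroblast markers was 16961, 28369 and 23934 in vector and 42204, 30699 and 39667 in miR-34a arrays. It was lowest in vector 1 and did not overlap between groups, as for Mmp2, Mmp11, Mmp14, Timp2 and Timp3. The macrophage, mast cell, and T and NK cell marker sums below were also lowest in vector 1 without overlap. This order was therefore not particular to fibroblast markers. In this list 4 passed, all higher. These 4 summed to 12927, 15011 and 13758 in vector and 28104, 21407 and 26450 in miR-34a arrays. They were picked for their calls and each was without overlap, so their sum could not overlap and adds no evidence. The collagen gene Col6a2 rose by 0.78, the surface glycoprotein gene Thy1 by 1.73, and the procollagen processing gene Pcolce by 0.81. The other 6 overlapped between groups, 5 with positive changes and Fap, a fibroblast protease gene, at -0.15. Their sum was 4034, 13358 and 10175 in vector and 14101, 9292 and 13217 in miR-34a arrays, which overlapped. No marker of this list was under an intensity of 100 on every array. The part of fibroblasts in the members' differences was not tested, and in bulk RNA more cells of a type cannot be told apart from more RNA per cell.

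For leukocytes the marker sums went several ways. The sum of 10 macrophage markers was 13050 in vector 1, 23600 to 24138 in the other vector arrays and 25222 to 29360 in miR-34a arrays. Of these, 2 passed as higher, the complement gene C1qb at 1.13 (limma adjusted p = 0.0463) and the Fc receptor gene Fcgr1 at 0.98 (limma adjusted p = 0.0345). The mannose receptor gene Mrc1 passed as lower, at -0.99 (limma adjusted p = 0.00264). The brightest was Ctss, a cathepsin gene, at 0.47. The sum of 8 neutrophil markers was highest in vector 1, at 10597, against 3795 and 4243 in the other vector arrays and 2851 to 3187 in miR-34a arrays. That order was set by the calprotectin genes S100a8 and S100a9. The other 6 markers summed to 2582, 2244 and 2370 in vector and 2251, 2549 and 2595 in miR-34a arrays, and 4 of the 8 had positive changes, none of which passed. S100a9 changed by -2.98 (limma adjusted p = 0.0235), and the granule protease gene Elane stayed under an intensity of 100 on every array. The part of neutrophils and macrophages in the Mmp9 difference was not tested.

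Markers of other cell types gave further values beside the members. The sum of 7 mast cell markers was 993 to 1357 in vector and 3345 to 5382 in miR-34a arrays. Of the 7, 4 passed as higher, led by the tryptase gene Tpsb2 at 3.53, where 6.5% of all genes did. The markers that did not pass, Mcpt4 at 1.14, Kit at 0.035 and Ms4a2 at 0.019, overlapped between groups. The sum of 9 endothelial and pericyte markers was 5020 to 10323 in vector and 7155 to 9143 in miR-34a arrays, with 0 called by limma and 2 at an unadjusted p under 0.05. Its brightest gene was Flt1, a VEGF receptor gene, at 0.32. The sum of 6 T and NK cell markers was 2992 to 3062 in vector and 3183 to 3441 in miR-34a arrays, with 0 called by limma and 2 at an unadjusted p under 0.05, and its brightest gene, Zap70, was at -0.022. The sum of 7 skin keratinocyte markers was 3371 to 5288 in vector and 3280 to 3713 in miR-34a arrays, with 0 called by limma, 0 at an unadjusted p under 0.05, and Krt14 as the brightest.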

How the data were processed

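Biotin-labelled cRNA of the 6 samples was run on Affymetrix mouse arrays, per the labels' protocols. The authors deposited linear intensities for 22690 probe sets, from 1 to 30253. How probes were summarised and normalized is not given in the sources used here, and medians per array were 466.7 to 484.2. No detection calls were used, so dim probe sets are not told apart from background, and the number of arrays limits the precision.

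Groups and replicate numbers come from the titles. Of the probe sets, 20393 had 1 symbol in the platform annotation, 691 several and 1606 none. For 20364 of those with 1 symbol the Entrez identifier was found in RefSeq (GRCm38.p6), whose symbol was used, changed or not. Control probe sets were left out. Each gene was represented by its probe set with the highest mean of log2(intensity + 16). The gene test was limma 3.58.1 under R 4.3.3 (lmFit, then eBayes), two-sided, without trend or block, with Benjamini-Hochberg adjustment at 0.05 over 12393 genes. A second fit used the 20380 single-symbol probe sets. Fold changes are on the log2(intensity + 16) scale, which understates those of dim genes. The fit was tested on simulated data. Promoter and microRNA sequences are from RefSeq, with 8 of 10 members matched. Figures used matplotlib 3.10.9 in Python 3.11.15.

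Members and lists were chosen with earlier results of these data known. All members are named, with up to 3 called genes per other list, the brightest marker and the genes most like a called member. Named after their values were seen were the measured genes of the chromosome 9 cluster and Nkx2-1, Elane, S100a8, Fap, Mcpt4, Kit and Ms4a2. Other normalization, filters, added constants, probe set rules, variance models, array weights, the replicate block and leaving out each array were tried.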

Additional observations from a re-analysis of the deposited data

How the results depend on the processing

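Directions of the members held in the alternatives run, except that Timp1, which did not pass in any of them, was -0.12 without vector 1 and up to 0.67 with another array left out. The members called were 1 higher and 0 lower. They became 4 and 3 with array weights, 0 higher with a robust variance trend, and 0 higher with the dimmest genes by level left out, which removes Mmp11. With the main probe set chosen by the linear mean, an alternative chosen after seeing the data, 1 was lower. Leaving out each array in turn gave 0 to 2 higher and 0 to 2 lower members, 0 to 5 higher and 0 to 4 lower genes of the wider protease system, and 226 to 2133 calls among all genes, against 1456. Array weights gave 3238 calls.

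The wider system had 3 higher and 1 lower calls. These were 6 and 5 with array weights, 1 and 5 when probe sets of a gene were averaged and 1 and 2 with the dimmest genes left out. The lower calls were 2 with quantile normalization, with 64 added or with the variance trend. Quantile normalization moved the share of higher among called genes from 55.3% to 43.1%. Samples with the same replicate number did not deviate together (r of -0.17, -0.094 and -0.081 across genes). These r come from deviations within groups of 3 and across genes that are not independent. They cannot exclude a pairing or a shared batch. The fit with the replicate block made 522 calls, 0 among the members and 0 in the wider system, and gave Mmp11 an adjusted p of 0.068. What caused these differences was not tested. No value of a dim probe set was set against its background.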
